A study of Mus musculus with 16 samples.

Results

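Sytl3, Rusc2, Cpsf4l, Bhlhe22, Slc39a8, Vmo1, Gas1 and Herc5 are 8 genes with no shared lineage or pathway that were chosen by their large differences in level between mouse embryonic stem cells with a Sirt1 hairpin and cells with a control hairpin. They were found in the array files by gene name or, for Cpsf4l and Bhlhe22, through RefSeq, which gave 15 probes, 10 of which passed the filter on dim signals, out of 41174 probes and 18288 genes tested. Because the hairpin difference chose them, that difference is described here array by array and is not tested. The retinoic acid response, which the choice did not use directly, was tested, although it shares its arrays with the hairpin comparisons.

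RNA was measured with 1-colour Agilent whole-genome arrays in the mouse embryonic stem cell line E14. Derived lines of 2 kinds each carried a short hairpin RNA stably expressed from a lentiviral vector, and a line below means all arrays of 1 hairpin. The sh-Control line held a control hairpin and the sh-SIRT1 line a hairpin against Sirt1, the gene of a nuclear deacetylase that uses NAD. Both lines grew with serum and leukemia inhibitory factor, which holds stem cells in self-renewal, and both received either the solvent ethanol (vehicle) or 20 nM retinoic acid (RA) for 2 days. There were 3 vehicle arrays of each line, 4 RA arrays of sh-Control and 6 RA arrays of sh-SIRT1, which make up 4 groups. No second hairpin against Sirt1 was measured, and the sources used here do not say whether a line was 1 clone. The design text speaks of 3 pairs of lines with duplicates without naming the duplicates, so the p-values reflect array-to-array spread that may be technical. The main fit has no term for such pairs.

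On the 16 arrays the 75th percentile of processed intensity was 684 to 1155, and 60.3 to 68.6% of spots were well above background. Levels below are log2 intensity minus the array's own 75th percentile, so a level of 0 is that percentile. Sirt1 was lower in sh-SIRT1 by 1.81 ± 0.15 in vehicle (adjusted p = 4.05e-05, limma) and by 2.18 ± 0.12 under RA (adjusted p = 2.48e-07, limma), as log2 difference ± standard error (SE). The 9 stem cell markers on the array were well above background on every array, with a mean level of 4.07 to 5.10. Of 10 fibroblast markers, Fap was at background on every array, and the mean of the 10 ran from -4.22 to -3.27 in vehicle and from -2.80 to -0.91 under RA. The mean of 10 primitive endoderm markers ran from -3.42 to -2.77 in vehicle and from -1.11 to 1.87 under RA. Neural markers kept a mean between -3.06 and -2.42 on all arrays. The part of other cell types in the results below was not tested.

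Arrays 2 to 4 of sh-Control RA stood apart from array 1 of the same group in the level of a Y-chromosome gene. Ddx3y, a gene of the Y chromosome, was at -6.91, -8.01 and -8.12 on arrays 2 to 4 but at 0.23 on array 1, and at 0.33 to 1.60 on the vehicle arrays and 0.41 to 0.94 on the sh-SIRT1 RA arrays. Hairpin differences under RA are therefore given with all 4 sh-Control RA arrays and also against array 1 alone, and RA differences in sh-Control are given on array 1 alone where they differ; these are values of 1 array, without a test. Arrays 3 and 4 of that group differed least of all pairs within a group, with a standard deviation (SD) over genes of 0.214 between their log2 levels, where the other pairs had 0.269 to 0.736. By this measure array 2 was not closer to arrays 3 and 4 (0.649 and 0.66) than to array 1 (0.633). The Ddx3y grouping was thus not that of all genes.

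The 8 proteins work in separate parts of the cell. Gas1 is a membrane protein that binds Hedgehog ligands and helps their receptor respond, and Bhlhe22 is a basic helix-loop-helix repressor known from the developing brain. Sytl3 is a synaptotagmin-like protein that tethers vesicles through Rab27, Rusc2 is an adaptor on transport vesicles, Slc39a8 (ZIP8) carries zinc and manganese into cells, and Vmo1 is a secreted protein first known from egg vitelline membrane. Cpsf4l is a zinc-finger relative of Cpsf4, a subunit of the complex that cleaves pre-mRNA at the poly(A) site, and Herc5 belongs to the HERC ligases that attach ISG15, an interferon-induced ubiquitin-like tag. Retinoic acid binds nuclear receptors that sit on DNA repeats of the half-site AGGTCA, and it drives stem cells out of self-renewal.

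Each level rests on a 60-base probe, so the first 30 bases of the probe used for each gene are shown to say what was measured. Positions are those of the deposited files (build mm7). The Herc5 probe spans 314 bases of the genome although it is 60 bases long, and the exon or untranslated region of each probe was not analysed here.
Gas1, chr13:59283463-59283522, minus strand: aaagttaccatggtgttgaacaatgcatgt
Bhlhe22, chr3:17782419-17782478, plus strand: cttcaatgatccacatcaaccgtatttatt
Sytl3, chr17:6267921-6267980, plus strand: gtccagtccgacacacagcgctgtcttctc
Rusc2, chr4:43440705-43440764, plus strand: agaggtcattggtaggtccactaggccgac
Cpsf4l, chr11:113807288-113807347, minus strand: cagactgctatgggtcaacggcctcaagtg
Slc39a8, chr3:135682549-135682608, plus strand: gtgatgagaattagtaatagaagccaagtt
Vmo1, chr11:70595315-70595374, minus strand: gggtggagccatttacattcccaggggaca
Herc5, chr6:57630527-57630840, plus strand: gacttaactttggatgaaaagaaaaaattc

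In the files Cpsf4l is named D11Ertd636e and Bhlhe22 is named Bhlhb5, and both were matched through RefSeq. RefSeq lists Herc5 as a synonym of mouse Herc6, so that probe measures the gene now called Herc6. Guanine and cytosine made up 35.0% of the Bhlhe22, Slc39a8 and Herc5 probes and 55.0% of the Cpsf4l and Vmo1 probes.

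RefSeq promoters (GRCm38.p6) were found for 7 of the 8 genes, 11 promoters in all, since Rusc2 has 3 and Cpsf4l and Slc39a8 have 2 each. The letters AGGTCA or, on the other strand, TGACCT stood in the 250 bases before the start in 6 of these 11 promoters, of 4 genes, and in 14.0% of the 32851 promoters of that length in the table. The most upstream such promoter of each of the 4 genes is shown, with the match in capitals, because the results below turn on responses to retinoic acid.
Sytl3, chr17:6658809-6659058, plus strand: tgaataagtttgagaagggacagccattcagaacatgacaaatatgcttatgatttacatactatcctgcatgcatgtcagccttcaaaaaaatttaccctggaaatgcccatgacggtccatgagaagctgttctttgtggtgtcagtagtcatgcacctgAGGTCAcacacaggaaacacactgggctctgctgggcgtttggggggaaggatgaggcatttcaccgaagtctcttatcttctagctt
Cpsf4l, chr11:113710018-113710267, minus strand: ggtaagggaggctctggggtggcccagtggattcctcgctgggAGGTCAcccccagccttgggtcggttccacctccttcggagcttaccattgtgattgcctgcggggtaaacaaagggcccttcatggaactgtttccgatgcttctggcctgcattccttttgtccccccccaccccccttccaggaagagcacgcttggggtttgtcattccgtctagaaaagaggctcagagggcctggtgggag
Slc39a8, chr3:135825029-135825278, plus strand: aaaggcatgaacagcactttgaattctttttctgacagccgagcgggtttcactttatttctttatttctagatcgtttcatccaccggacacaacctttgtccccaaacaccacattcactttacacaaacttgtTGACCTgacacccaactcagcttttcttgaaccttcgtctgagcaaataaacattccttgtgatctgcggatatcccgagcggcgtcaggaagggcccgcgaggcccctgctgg
Herc6, chr6:57580742-57580991, plus strand: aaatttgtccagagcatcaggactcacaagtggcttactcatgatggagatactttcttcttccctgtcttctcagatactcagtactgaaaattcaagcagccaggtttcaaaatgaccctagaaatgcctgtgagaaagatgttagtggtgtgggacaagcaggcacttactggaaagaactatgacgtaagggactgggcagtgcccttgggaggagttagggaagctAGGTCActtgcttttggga

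These 4 genes did not respond to retinoic acid alike, as the values below show, and a match of letters is a description and not a binding site. The number of CG pairs in the same 250 bases ran from 1 for Herc6, 2 for Vmo1 and 3 for Sytl3 to 26 and 36 for 2 overlapping Rusc2 promoters, against a median of 6 over all promoters (quartiles 2 and 16). Gas1 had 10.

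In vehicle, 4 genes were higher in sh-SIRT1 (Bhlhe22, Slc39a8, Vmo1 and Gas1) and 4 were lower (Sytl3, Rusc2, Cpsf4l and Herc5). The 3 sh-SIRT1 and 3 sh-Control arrays did not overlap for any of the 8 genes, a pattern found for 35.9% of 18272 genes with a value on every array compared, and the genes were chosen for large hairpin differences. Under RA, the 6 sh-SIRT1 and 4 sh-Control arrays did not overlap for 6 of the 8, in the same direction as in vehicle. The choice of genes did not say in which treatment the difference was large, so this count is not independent of it either. Among all genes 15.4% did not overlap under RA and 6.26% did not overlap in both treatments with the same direction. Rusc2 and Slc39a8 are the 2 genes whose arrays overlapped under RA. With background removed by the normexp method in place of the authors' own correction, only 2 genes had non-overlapping arrays under RA. The differences of the dim genes then shrank, as given for each below. This run also added an offset of 50 intensity units to every spot, which by itself shrinks log2 differences of dim genes. A call that ended with normexp therefore does not separate background correction from the offset. Against array 1 alone, a single array, Slc39a8 differed in the opposite direction. The share of all genes without overlap was not computed for these settings. At an adjusted p under 0.05, 8.62% of all genes differed between the lines in vehicle and 20.3% under RA.

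**Figure D1:**
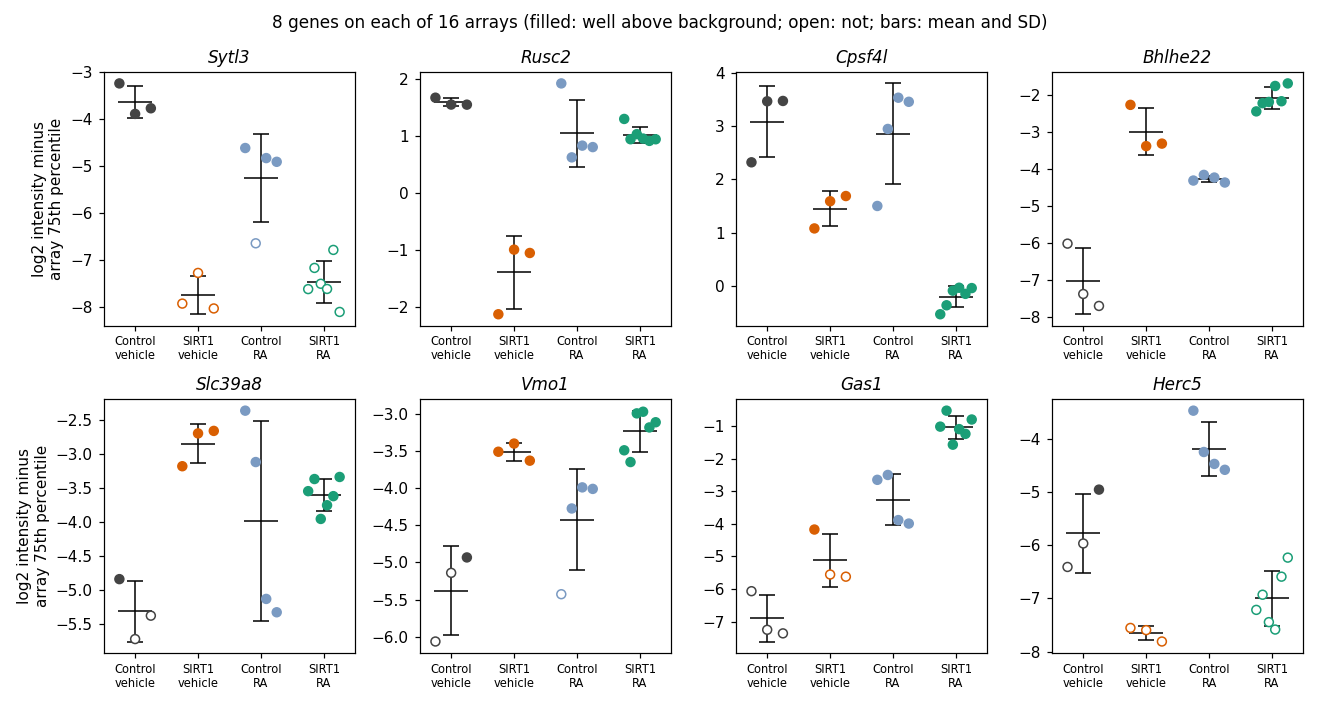
Level of each gene (log2 intensity minus the array's 75th percentile, vertical axes differ) on all 16 arrays in the 4 groups; points are arrays in order of their number, filled where the probe was well above background, and bars give the group mean and SD. Rusc2 in sh-SIRT1 moves from between -2.12 and -0.99 in vehicle to between 0.92 and 1.31 under RA, inside the sh-Control RA range, while Cpsf4l in sh-SIRT1 lies below every sh-Control array of the same treatment.

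Gas1 had 4 separate groups, in the order sh-SIRT1 RA, sh-Control RA, sh-SIRT1 vehicle and sh-Control vehicle, and no neighbouring groups overlapped. The sh-Control vehicle arrays read -6.06, -7.25 and -7.36, all not well above background, and the sh-SIRT1 vehicle arrays read -4.17, -5.55 and -5.62, of which only the first was well above background. Under RA the sh-Control arrays read -2.65, -2.50, -3.88 and -3.99, and the 6 sh-SIRT1 arrays ran from -1.57 through a median of -1.06 to -0.53. Array 1 was the highest of its line in vehicle in both lines, and every sh-SIRT1 array was above every sh-Control array of its treatment.

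The Gas1 hairpin difference was 1.77 ± 0.48 in vehicle and 2.21 ± 0.38 under RA, with a difference between the 2 of 0.44 ± 0.62. With normexp it was 0.14 in vehicle and 1.34 under RA. In fold terms it was at least 1.21-fold higher in vehicle, where sh-Control has only an upper bound, and 4.64-fold higher under RA. Where no array of a group was well above background, a fold is given as "at least", computed per array against the probe's own signal or, if higher, the dimmest signal that was still well above background. Same-numbered arrays of the 2 lines differed by 1.69 to 1.89 in vehicle and by 1.63 to 2.89 under RA. Against sh-Control array 1 alone the difference under RA was 1.61.

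RA raised Gas1 in both lines. It rose by 3.63 ± 0.45 in sh-Control (at least 4.39-fold, adjusted p = 2.4e-05, limma) and by 4.07 ± 0.42 in sh-SIRT1 (adjusted p = 2.21e-06, limma). All 4 sh-Control RA arrays were 2.90 to 4.39 above the vehicle mean of their line, and all 6 sh-SIRT1 RA arrays 3.54 to 4.58 above theirs. Averaged over both lines the rise was 3.85 (adjusted p = 1.07e-07, limma). The Gas1 probe passed the filter on dim signals only through the RA groups, the higher side of these comparisons.

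Gas1 acts with other co-receptors of the Hedgehog pathway, in which the receptor Ptch1 holds back Smo until a ligand binds. Of 14 tested genes of Hedgehog reception and its targets, 8 rose and 3 fell with RA averaged over both lines, and their median difference was 0.39 against -0.14 over all genes, of which 25.7% rose and 39.4% fell. Hhip, a membrane antagonist that is itself a pathway target, rose by 4.57 ± 0.62 (adjusted p = 1.61e-05, limma). Gfra1, which was at background in vehicle, rose by 3.74 ± 0.29 (adjusted p = 7.47e-08, limma), at least 2.14-fold in sh-Control and at least 3.5-fold in sh-SIRT1. The Hhip and Gfra1 probes passed the filter on dim signals only through RA groups, the higher side, so these rises are not independent of the filter. Between the lines in vehicle 1 of the 14 passed: Smo, the signal transducer, was 0.54 ± 0.12 higher in sh-SIRT1 (adjusted p = 0.0115, limma). The Smo call ended without sh-Control vehicle array 2 (0.50, adjusted p = 0.0531) or array 3 (0.49, adjusted p = 0.0594), and with normexp (0.56, adjusted p = 0.13).

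Bhlhe22 was the gene with the widest upward gap in vehicle. The sh-Control vehicle arrays read -6.01, -7.37 and -7.69, none well above background, and the sh-SIRT1 vehicle arrays read -2.28, -3.39 and -3.32. Under RA the sh-Control arrays lay close together at -4.31, -4.16, -4.23 and -4.37, and the sh-SIRT1 arrays ran from -2.45 through -2.19 to -1.70. Only sh-SIRT1 RA and sh-SIRT1 vehicle, the 2 highest groups, overlapped.

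The hairpin difference in Bhlhe22 was 4.03 ± 0.37 in vehicle (at least 5.26-fold) and 2.18 ± 0.29 under RA (4.54-fold), a difference between the 2 of -1.85 ± 0.47. Sytl3 and Bhlhe22 thus kept their direction with a smaller log2 gap under RA, and since the lower vehicle group lay at background in each, the true size of the vehicle gap is not measured. With normexp the gaps in Bhlhe22 were 1.13 in vehicle and 1.09 under RA. The gap under RA was 2.23 against array 1 alone. Same-numbered arrays differed by 3.74 to 4.37 in vehicle and 1.86 to 2.60 under RA.

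A second Bhlhe22 probe, 308 bases further along the same strand and well above background on 13 arrays like the first, gave 2.64 ± 0.40 in vehicle and 1.98 ± 0.32 under RA. Its arrays did not overlap in either treatment. The part of it shown is placed beside that of the first probe.
Bhlhe22, second probe, chr3:17782727-17782786, plus strand: ttccaaaaggggacctatttgcattccaaa

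RA raised Bhlhe22 by 2.75 ± 0.35 in sh-Control (at least 2.17-fold, adjusted p = 2.56e-05, limma), and all 4 arrays were 2.66 to 2.86 above the vehicle mean. That call ended with normexp (0.76, adjusted p = 0.11). In sh-SIRT1, where it was already measured in vehicle, it rose by 0.91 ± 0.32 (adjusted p = 0.0251, limma). The sh-SIRT1 call ended without sh-SIRT1 vehicle array 2 (0.71, adjusted p = 0.125) or array 3 (0.74, adjusted p = 0.11), and on the second probe (0.79, adjusted p = 0.101). It also ended with normexp (0.72, adjusted p = 0.0788), quantile normalization (0.67, adjusted p = 0.125) and the array number as a block over all groups (0.78, adjusted p = 0.0841).

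Bhlhe22 belongs with the Olig and Neurod families of neural helix-loop-helix factors and works with the repressor Prdm8. Of 9 tested genes of that list, 3 rose and 4 fell with RA averaged over both lines (median -0.29). Among all genes 25.7% rose and 39.4% fell (median -0.14). Olig3 rose by 3.65 ± 0.15 (adjusted p = 1.91e-10, limma) and Neurod1, a neuronal differentiation factor, fell by 3.61 ± 0.57 (adjusted p = 7.44e-05, limma). The Olig3 probe passed the filter on dim signals only through RA groups, and the Neurod1 probe only through vehicle groups. These are the higher sides, so neither change is independent of the filter. In vehicle 2 of the 9 differed between the lines, in opposite directions. Bhlhe23, the closest relative of Bhlhe22, was lower in sh-SIRT1 by 1.39 ± 0.25 (adjusted p = 0.00427, limma), whereas Prdm8 was 0.89 ± 0.21 higher (adjusted p = 0.0167, limma). Both calls ended with normexp, where Bhlhe23 was at -0.91 (adjusted p = 0.398) and Prdm8 at 0.03 (adjusted p = 0.996). No sh-Control vehicle array had Prdm8 well above background, and its call ended without sh-Control vehicle array 2 (0.76, adjusted p = 0.081), sh-SIRT1 vehicle array 2 (0.72, adjusted p = 0.0781) or sh-SIRT1 vehicle array 3 (0.85, adjusted p = 0.0583).

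Sytl3 was at background in sh-SIRT1 throughout. The sh-Control vehicle arrays read -3.23, -3.88 and -3.76, all well above background, and the sh-SIRT1 vehicle arrays read -7.92, -7.27 and -8.02, none above it. Under RA the sh-Control arrays read -4.61, -6.64, -4.82 and -4.90, and the sh-SIRT1 arrays ran from -8.10 through -7.55 to -6.78, again none above background. Array 2 of sh-Control RA was the 1 array of its line not well above background, and it was still above every sh-SIRT1 array, by 0.14 at the closest.

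The difference in Sytl3 was -4.11 ± 0.45 in vehicle and -2.22 ± 0.36 under RA, and the second minus the first was 1.89 ± 0.57. As bounds these are at least 4.19-fold lower in vehicle and at least 1.46-fold lower under RA. With normexp the Sytl3 differences were -1.09 in vehicle and -0.40 under RA. The difference under RA was -2.85 against array 1 alone. Same-numbered pairs ran from -4.68 to -3.38 in vehicle and from -3.00 to -0.52 under RA, the last being the pair with sh-Control RA array 2.

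RA lowered Sytl3 in sh-Control, where it fell by 1.62 ± 0.42 (adjusted p = 0.00635, limma) on 4 of 4 arrays. The probe passed the filter on dim signals only through sh-Control vehicle, the higher group here, so this fall is not independent of the filter. On array 1 alone the difference was -0.98. With normexp the sh-Control difference was -0.41 (adjusted p = 0.676, limma). In sh-SIRT1 the difference was 0.28 ± 0.39 (adjusted p = 0.563, limma) between groups that were both at background, so no fold is given. Averaged over both lines the difference was -0.67 (adjusted p = 0.0535, limma). It passed without sh-Control RA array 1 (-0.77, adjusted p = 0.0307), sh-Control RA array 3 (-0.74, adjusted p = 0.0453) or sh-SIRT1 RA array 5 (-0.74, adjusted p = 0.0351).

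Of 7 tested genes of the list of synaptotagmin-like proteins, Rab27 and vesicle docking, 3 rose and 1 fell with RA averaged over both lines, and the median was 0.04. Over all genes the shares were 25.7% and 39.4%, and the median was -0.14. Sytl4 rose by 3.1 ± 0.14 (adjusted p = 5.39e-10, limma), from background in vehicle to at least 4.07-fold higher in sh-Control and at least 4.77-fold higher in sh-SIRT1. Sytl2 rose by 2.07 ± 0.28 (adjusted p = 1.87e-05, limma), at least 1.12-fold and at least 1.01-fold, a call that ended with normexp (0.49, adjusted p = 0.27). The Sytl4 probe passed the filter on dim signals only through the RA groups and the Sytl2 probe only through sh-Control RA. Neither rise is thus independent of the filter. In vehicle 1 of the 7 differed between the lines, the vesicle GTPase Rab3a, which was 0.82 ± 0.22 higher in sh-SIRT1 (adjusted p = 0.0357, limma). Leaving out any 1 of 5 vehicle arrays, all but sh-Control array 1, ended that call, with values of 0.72 to 0.86 and adjusted p from 0.0766 to 0.139, as did normexp (0.78, adjusted p = 0.0745), quantile normalization (0.77, adjusted p = 0.0532) and slide as a block (0.82, adjusted p = 0.0801).

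Rusc2 was well above background on all 16 arrays, and its lines were apart in vehicle and overlapped under RA. Arrays of sh-Control in vehicle read 1.68, 1.56 and 1.56, and the sh-SIRT1 vehicle arrays read -2.12, -0.99 and -1.05. With RA, sh-Control read 1.93, 0.63, 0.84 and 0.81, and the sh-SIRT1 arrays ran from 0.92 through 0.95 to 1.31. All 6 sh-SIRT1 RA arrays thus fell inside the sh-Control RA range, and only sh-SIRT1 vehicle stood apart from its neighbour in the order of levels, by 1.91.

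The hairpin difference in Rusc2 was -2.99 ± 0.31 in vehicle (7.92-fold lower) and -0.03 ± 0.25 under RA, and the second minus the first was 2.95 ± 0.40. Against array 1 alone it was -0.91 under RA, and against arrays 2 to 4 it was 0.26. The 3 same-numbered pairs of arrays 2 to 4 under RA were between 0.15 and 0.32, and pair 1 was -0.62. In vehicle the pairs ran from -3.80 to -2.55, and within the 2 slides that held both lines in vehicle the difference was -2.67 and -2.61.

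RA raised Rusc2 in sh-SIRT1 by 2.41 ± 0.27 (adjusted p = 4.71e-06, limma), with all 6 arrays 2.31 to 2.69 above the vehicle mean. In sh-Control the difference was -0.55 ± 0.29 (adjusted p = 0.139, limma), with 3 arrays below and array 1 above the vehicle mean. Without array 1 the sh-Control difference was -0.84 (adjusted p = 0.00931, limma), a fall on the 3 other arrays. The average over both lines, 0.93 (adjusted p = 8.83e-04, limma), joins these unlike values, and on the second probe described next it was 0.15 (adjusted p = 0.555).

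A second Rusc2 probe, well above background on 10 arrays, repeated the pattern with smaller values. Its hairpin difference was -1.58 ± 0.30 in vehicle without overlap and 0.16 ± 0.24 under RA with overlap. It rose by 1.02 ± 0.26 with RA in sh-SIRT1 (adjusted p = 0.00368, limma) and fell by 0.72 ± 0.28 in sh-Control (adjusted p = 0.0473, limma).
Rusc2, second probe, chr4:43429863-43429922, plus strand: tacctcttccagaagccagacatccagcca

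Of the 6 genes listed with Rusc2 for vesicle transport, 1 rose and 3 fell with RA averaged over both lines, a median of -0.16. Among all genes 25.7% rose and 39.4% fell, a median of -0.14. Gja1, a gap junction protein carried on such vesicles, fell by 0.69 ± 0.19 (adjusted p = 0.00576, limma), and Ap1b1, a subunit of the AP-1 coat adaptor, rose by 0.27 ± 0.06 (adjusted p = 0.000695, limma), a call that ended with normexp (0.19, adjusted p = 0.114). In vehicle its relative Rusc1 was lower in sh-SIRT1 by 0.78 ± 0.22 (adjusted p = 0.044, limma). Under RA Rusc1 differed by 0.18 (adjusted p = 0.511, limma), and the Rusc1 call in vehicle ended in 11 of the 16 fits that left out 1 array, with values from -0.81 to -0.57 and adjusted p up to 0.149, and with normexp (-0.75, adjusted p = 0.193) and slide as a block (-0.68, adjusted p = 0.105).

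Cpsf4l had its highest levels in sh-Control, with or without RA. In vehicle, sh-Control arrays read 2.32, 3.47 and 3.47, and the sh-SIRT1 vehicle arrays read 1.08, 1.59 and 1.69. With RA, sh-Control read 1.50, 2.95, 3.53 and 3.46, and the sh-SIRT1 arrays ran from -0.53 through -0.12 to -0.03. Array 1 was the lowest of its group in each of the 4 groups, and sh-SIRT1 RA was the lowest group, 1.11 below the nearest sh-SIRT1 vehicle array.

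The difference in Cpsf4l was -1.63 ± 0.44 in vehicle (3.1-fold lower) and -3.06 ± 0.35 under RA (8.34-fold lower), the second minus the first being -1.43 ± 0.56. Against sh-Control RA array 1 alone, set against the mean of all sh-SIRT1 RA arrays, the difference under RA was -1.70. Same-numbered pairs ran from -1.88 to -1.24 in vehicle and from -3.62 to -2.03 under RA. Every pair under RA was thus wider than every pair in vehicle. Pair 1 was the narrowest in each treatment, at -1.24 in vehicle and -2.03 under RA. A second Cpsf4l probe was well above background on 3 of 16 arrays and gave -0.78 ± 0.50 and -1.22 ± 0.40, with overlapping arrays in both treatments.

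With RA, Cpsf4l fell by 1.65 ± 0.38 in sh-SIRT1 (adjusted p = 0.00183, limma) on 6 of 6 arrays, and the dim second probe gave -1.06 (adjusted p = 0.0735). In sh-Control the difference was -0.23 ± 0.41 (adjusted p = 0.668, limma), 2 arrays above and 2 below the vehicle mean, and on array 1 alone it was -1.59. The mean over both lines fell by 0.94 (adjusted p = 0.00845, limma).

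Cpsf4 works within the machinery of cleavage and polyadenylation. Of 16 tested genes of that machinery, none rose and 13 fell averaged over both lines, with a median of -0.40 against -0.14 over all genes. The shares of all genes were 25.7% that rose and 39.4% that fell, and in sh-Control 19.7% and 27.2%. The poly(A) binding protein Pabpn1 fell by 0.71 ± 0.07 (adjusted p = 8.05e-07, limma) and the cleavage complex subunit Fip1l1 by 0.68 ± 0.07 (adjusted p = 1.4e-06, limma). In sh-Control alone 8 fell and 1 rose, Clp1, by 0.39 (adjusted p = 0.00386, limma), which is named after its value was seen. Without adjustment, at a p under 0.05 by limma, 0 were higher and 14 lower averaged over both lines, and 1 was higher and 10 lower in sh-Control. The share of all genes at an unadjusted p under 0.05 was not computed, so these and the unadjusted counts below have none beside them. Between the lines in vehicle none of the 16 passed by limma after adjustment, while 5 were higher in sh-SIRT1 and 0 lower at an unadjusted p under 0.05, and their median was 0.09. Under RA the direction was the opposite, with 0 higher and 2 lower after adjustment, where 20.3% of all genes passed. Without adjustment 0 were higher and 5 lower under RA, and the median was -0.12.

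Slc39a8 was higher in sh-SIRT1 in vehicle, and the lines overlapped under RA. The sh-Control vehicle arrays read -4.83, -5.72 and -5.37, of which 1 was well above background, and the sh-SIRT1 vehicle arrays read -3.17, -2.69 and -2.65, all above it. Under RA the sh-Control arrays split into -2.36 and -3.11 on arrays 1 and 2 and -5.12 and -5.32 on arrays 3 and 4. The sh-SIRT1 RA arrays ran from -3.95 through -3.58 to -3.33, in the gap between those values.

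The hairpin difference in Slc39a8 was 2.47 ± 0.59 in vehicle and 0.39 ± 0.47 under RA, the second minus the first being -2.08 ± 0.75. With normexp it was 0.92 in vehicle and -0.11 under RA. Against array 1 alone the difference under RA turned to -1.23, and pairs of same-numbered arrays ran from -1.18 to 1.57. In vehicle the 3 pairs ran from 1.66 to 3.02. The other 2 Slc39a8 probes were well above background on 0 and 1 of 16 arrays; they gave 1.40 ± 0.52 and -0.36 ± 0.53 in vehicle and are not a check.

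No RA difference of Slc39a8 passed the test. It was 1.33 ± 0.55 in sh-Control (adjusted p = 0.0623, limma) and -0.75 ± 0.51 in sh-SIRT1 (adjusted p = 0.224, limma), below the vehicle mean on 6 of 6 arrays. In sh-Control it passed without array 3 (1.71, adjusted p = 0.0203) or array 4 (1.78, adjusted p = 0.0123) of the RA group. It also passed with the array number as a block over all groups (1.57, adjusted p = 0.0452). On array 1 alone it was 2.95.

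Slc39 importers bring zinc into the cytosol, Slc30 proteins move it out, and metallothioneins bind it. Of 12 other Slc39 genes tested, 4 rose and 2 fell with RA averaged over both lines (median 0.06). Over all genes 25.7% rose and 39.4% fell (median -0.14). Slc39a14, the closest relative of Slc39a8 in what it carries, fell by 1.17 ± 0.10 (adjusted p = 2.14e-07, limma), and Slc39a11 rose by 0.93 ± 0.16 (adjusted p = 1.38e-04, limma). In vehicle 3 of the 12 differed between the lines, 2 of them higher in sh-SIRT1. Slc39a3 was 0.98 ± 0.14 higher (adjusted p = 9.76e-04, limma; with normexp 0.72, adjusted p = 0.0604) and 0.82 higher under RA (adjusted p = 3.05e-04, limma). Slc39a11 was lower by 1.01 ± 0.25 (adjusted p = 0.0216, limma), a call that ended without any 1 of 5 vehicle arrays, all but sh-Control array 1, with values from -1.04 to -0.92 and adjusted p up to 0.0912, or with normexp (-0.90, adjusted p = 0.0877). Of 14 Slc30 and metallothionein genes, 4 rose and 5 fell with RA (median 0.06), among them Mt1, by 1.79 ± 0.27 (adjusted p = 4.76e-05, limma), and Mt2, by 1.28 ± 0.35 (adjusted p = 0.00543, limma), both of which fell. The Mt2 call ended with quantile normalization (-0.90, adjusted p = 0.0523). None of the 14 passed between the lines in vehicle by limma after adjustment, and at an unadjusted p under 0.05, 3 were higher and 1 lower in sh-SIRT1, again without a share of all genes.

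**Figure D2:**
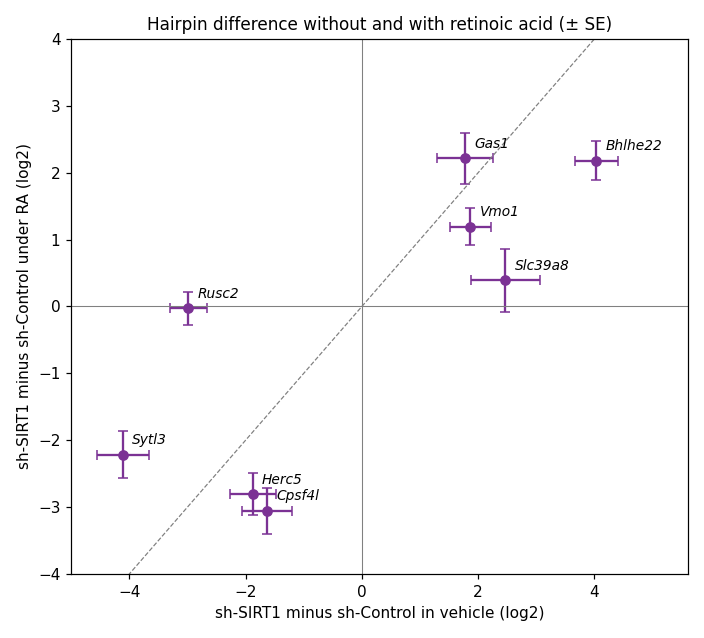
Hairpin difference (sh-SIRT1 minus sh-Control, log2) in vehicle on the horizontal axis and under RA on the vertical axis for the 8 genes, with SE bars; the dashed line marks equal differences. Rusc2 (-2.99 and -0.03) and Slc39a8 (2.47 and 0.39) lie near 0 under RA, and the other 6 genes differ by more than 1 in the same direction in both; with normexp Sytl3 (-0.40), Vmo1 (0.43) and Herc5 (-0.63) differ by less than 1 under RA.

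Vmo1 was higher in sh-SIRT1 in both treatments. In vehicle, sh-Control arrays read -6.07, -5.14 and -4.93, of which 1 was well above background, and the sh-SIRT1 vehicle arrays read -3.51, -3.40 and -3.63. With RA, sh-Control read -5.43, -4.27, -3.99 and -4.01, with array 1 not well above background, and the sh-SIRT1 arrays ran from -3.65 through -3.15 to -2.97. Groups of the same line overlapped and groups of different lines did not.

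The hairpin difference in Vmo1 was 1.87 ± 0.35 in vehicle and 1.19 ± 0.28 under RA, the second minus the first being -0.67 ± 0.45. With normexp it was 0.41 in vehicle and 0.43 under RA. It was 2.20 under RA against array 1 alone. All 3 pairs in vehicle (1.30 to 2.56) and all 4 pairs under RA (0.63 to 1.94) were positive.

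Vmo1 rose with RA by 0.95 ± 0.33 in sh-Control (adjusted p = 0.0278, limma) and differed by 0.28 ± 0.30 in sh-SIRT1 (adjusted p = 0.448, limma). The sh-Control call ended without sh-Control vehicle array 1 (0.61, adjusted p = 0.159) or without RA array 2 (0.90, adjusted p = 0.0583), 3 (0.81, adjusted p = 0.074) or 4 (0.82, adjusted p = 0.0728). It also ended with normexp (0.31, adjusted p = 0.679), quantile normalization (0.87, adjusted p = 0.0509) and slide as a block (0.84, adjusted p = 0.0959). On RA array 1 alone the difference was -0.05. The average over both lines, 0.62 (adjusted p = 0.0253, limma), did not pass without sh-Control vehicle array 1 (0.45, adjusted p = 0.0854), sh-SIRT1 vehicle array 3 (0.59, adjusted p = 0.0539), or sh-Control RA array 3 (0.54, adjusted p = 0.0516) or 4 (0.55, adjusted p = 0.051). Nor did it pass with normexp (0.31, adjusted p = 0.389), quantile normalization (0.44, adjusted p = 0.114) or the array number as a block over all groups (0.48, adjusted p = 0.0618).

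Herc5 was well above background only in sh-Control, on 1 of 3 arrays in vehicle and on all 4 under RA. The sh-Control vehicle arrays read -6.41, -5.97 and -4.95, and the sh-SIRT1 vehicle arrays read -7.56, -7.60 and -7.81. Under RA the sh-Control arrays read -3.46, -4.24, -4.47 and -4.58, and the sh-SIRT1 arrays ran from -7.59 through -7.07 to -6.23. The sh-Control RA group stood above the others without overlap, and sh-SIRT1 RA overlapped both vehicle groups.

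The difference in Herc5 was -1.88 ± 0.40 in vehicle and -2.81 ± 0.31 under RA (at least 3.02-fold lower), the second minus the first being -0.93 ± 0.51. With normexp it was -0.30 in vehicle and -0.63 under RA. Against array 1 alone, the difference under RA was -3.54. Same-numbered pairs ran from -2.86 to -1.15 in vehicle and from -3.75 to -2.69 under RA. The other 2 Herc5 probes were at background on all 16 arrays, so the gene rests on 1 probe.

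With RA, Herc5 rose by 1.59 ± 0.37 in sh-Control (adjusted p = 0.00322, limma), on 4 of 4 arrays. Its probe passed the filter on dim signals only through sh-Control RA, the higher group here, so this rise is not independent of the filter. In sh-SIRT1 the difference was 0.65 ± 0.34 (adjusted p = 0.117, limma), with both groups at background. The mean over both lines rose by 1.12 (adjusted p = 0.00136, limma). Both calls ended with normexp, at 0.65 in sh-Control (adjusted p = 0.398) and 0.49 on average (adjusted p = 0.274).

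ISG15 is made, activated by Uba7, attached by HERC ligases and removed by Usp18. Of 11 tested genes of HERC proteins and this conjugation system, 6 rose and 2 fell with RA averaged over both lines (median 0.53). The shares over all genes were 25.7% and 39.4% (median -0.14). Usp18 rose by 2.92 ± 0.14 (adjusted p = 1.03e-09, limma), at least 1.78-fold in sh-Control and at least 1.43-fold in sh-SIRT1. At background in vehicle, Usp18 passed the filter on dim signals only through RA groups, so its rise is not independent of the filter. Uba7 rose by 1.16 ± 0.18 (adjusted p = 7.55e-05, limma). Both calls ended with normexp, where Usp18 was at 0.71 (adjusted p = 0.0833) and Uba7 at 0.48 (adjusted p = 0.238). In vehicle 1 of the 11 differed between the lines: Herc3, which lies in the same chromosome region as Herc6, was lower in sh-SIRT1 by 0.69 ± 0.11 (adjusted p = 0.00241, limma). Under RA it differed by -0.17 (adjusted p = 0.197, limma).

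**Figure D3:**
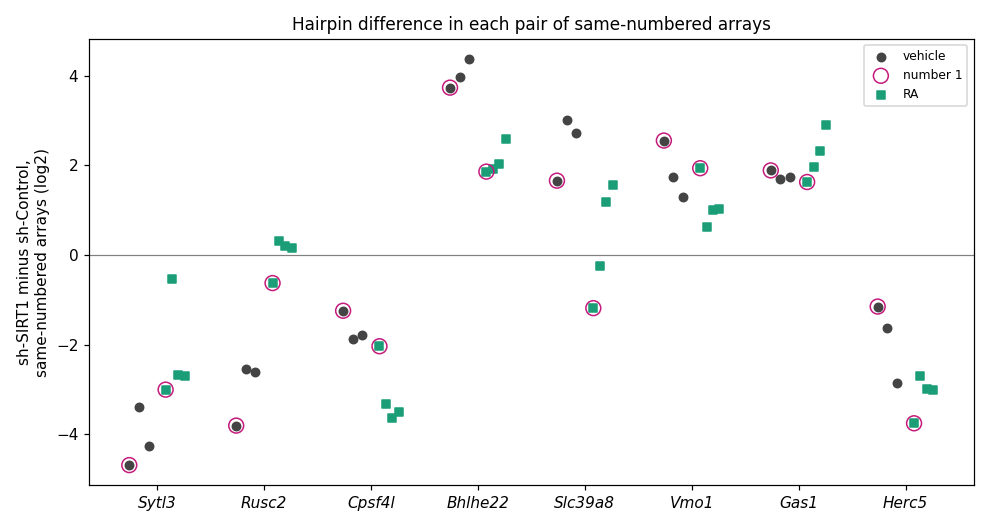
Difference between same-numbered sh-SIRT1 and sh-Control arrays (log2) for each gene, 3 pairs in vehicle (circles) and 4 pairs under RA (squares); rings mark the pairs numbered 1. All pairs of Sytl3, Cpsf4l and Herc5 are below 0 and all pairs of Bhlhe22, Vmo1 and Gas1 above 0 in both treatments, whereas under RA Rusc2 runs from -0.62 to 0.32 and Slc39a8 from -1.18 to 1.57.

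Counted over the 8 genes, RA changed 5 in sh-Control by limma, 4 that rose (Bhlhe22, Vmo1, Gas1 and Herc5) and 1 that fell (Sytl3), where 19.7% of all genes rose and 27.2% fell. In sh-SIRT1 it changed 4, of which Rusc2, Bhlhe22 and Gas1 rose and Cpsf4l fell, where 23% of all genes rose and 35.2% fell. Averaged over both lines 5 rose and 1 fell, where 25.7% of all genes rose and 39.4% fell. Bhlhe22 and Gas1 are the 2 genes that rose in each line. With normexp background correction the sh-Control count dropped from 5 to 1, which was Gas1. The RA comparison of each line shares its vehicle and RA arrays with the 2 hairpin comparisons, so these counts are not independent of the choice of genes. Nor are they independent of the filter, which Gas1 and Herc5 passed only through RA groups and Sytl3 only through sh-Control vehicle.

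**Figure D4:**
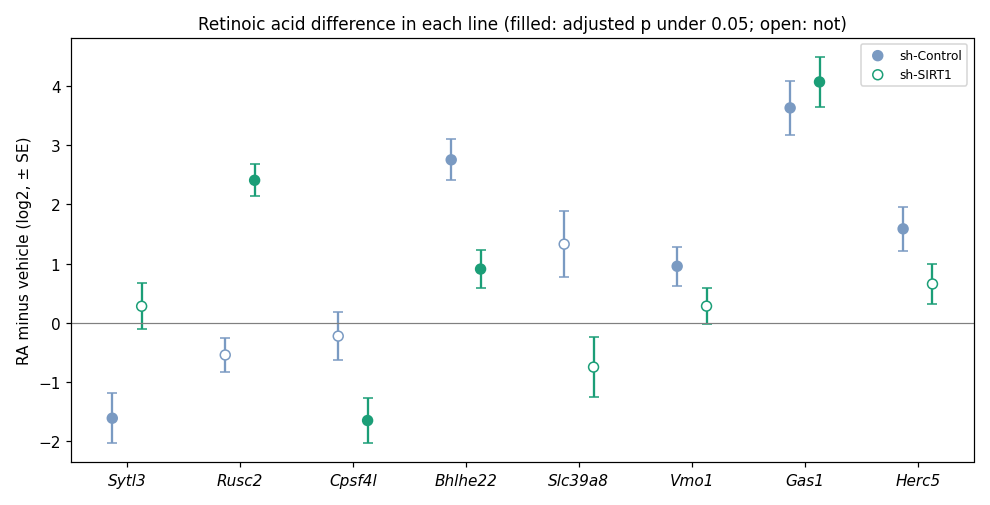
Retinoic acid difference (RA minus vehicle, log2, with SE bars) of each gene in sh-Control and sh-SIRT1; filled points have a limma adjusted p under 0.05. Gas1 is 3.63 and 4.07 higher in the 2 lines, Rusc2 is higher in sh-SIRT1 by 2.41, and Sytl3 is lower in sh-Control by 1.62.

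The genes most like each member in their log2 levels over the 16 arrays, among 18235 genes, were named without a test, since the arrays share groups and treatments. Gas1 ran with Meis2 and Tshz1 (Pearson r = 0.989 for both), which are transcription factor genes and were themselves 1.77 and 1.74 higher in sh-SIRT1 in vehicle. Cpsf4l ran with Rcor2, a corepressor gene (r = 0.97), and BC054101 (r = 0.969), Bhlhe22 with Zfp410 (r = 0.965) and Tmco3 (r = 0.952), and Vmo1 with Letm2 (r = 0.974) and 4930526I15Rik (r = 0.963). Rusc2 ran with Nid1, a basement membrane gene (r = 0.943), and Dtx2 (r = 0.941), and Sytl3 with AI597013 (r = 0.961) and 2210010C17Rik (r = 0.932). The nearest to Herc5 were Pip5k1b (r = 0.935) and LOC435366 (r = 0.934), and the nearest to Slc39a8 were Tm9sf2 (r = 0.91) and Ryk (r = 0.894), which was the loosest match among the 8.

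The closest tested gene on each side of the 8 on the chromosome, by RefSeq order (GRCm38.p6), was compared between the lines in the same fit, an addition made after the members' values were seen. Of these 16 neighbours 2 differed in vehicle and 6 under RA by limma, beside the 8.62% and 20.3% of all genes given above. Cyp7b1, an oxysterol hydroxylase next to Bhlhe22, was 1.44 ± 0.41 higher in sh-SIRT1 in vehicle (adjusted p = 0.0451, limma) and 1.22 ± 0.33 higher under RA (adjusted p = 0.0177, limma). Gltpd2, next to Vmo1, was 1.11 ± 0.23 higher in vehicle (adjusted p = 0.00841, limma) and 0.62 ± 0.18 higher under RA (adjusted p = 0.0254, limma). Both shifted in the direction of the member beside them. Under RA so did Cdc42ep4 beside Cpsf4l (-0.55, adjusted p = 0.00697, limma) and Dapk1 beside Gas1 (0.48, adjusted p = 0.0448, limma). Fam166b beside Rusc2 (0.65, adjusted p = 0.0272, limma) and Ppp3ca beside Slc39a8 (-0.43, adjusted p = 0.00395, limma) went against the member's vehicle difference under RA. The Cyp7b1 call in vehicle ended in 12 of 16 fits without 1 array, with values from 1.13 to 1.60, and the Gltpd2 call under RA in 6 of 16. With normexp the vehicle calls ended for Cyp7b1 (1.24, adjusted p = 0.128) and Gltpd2 (0.82, adjusted p = 0.117), as did the Gltpd2 call under RA (0.46, adjusted p = 0.202). The neighbours of Sytl3, Gas1 and Herc5 lay between -0.28 and 0.22 in vehicle.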

How the data were processed

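The arrays were 1-colour (Cy3) Agilent Whole Mouse Genome slides, 4 arrays to a slide. Per the file headers, the authors' processed intensity values came from Feature Extraction 9.5.3.1 (9.5 in the submitters' processing notes) with a spatial and a multiplicative trend removed, surrogates for dim spots and no other background subtraction. The deposited series matrix held the same intensity values on all 45018 spots of each array (relative tolerance 1e-06).

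Control spots and outlier spots were left out, the log2 intensity was set relative to the 75th percentile of its array, and spots of a probe were averaged. Probes entered the tests where at least 1 group had them well above background on every array (26373 of 41174 probes). Some probes thus entered only through the group where they were high. This holds for genes of the related lists too, so their RA counts are not independent of the filter. The kept probe with the highest mean stood for its gene, which gave 18288 genes, named through RefSeq accessions or synonyms where these matched (11982 with a RefSeq symbol). Limma 3.58.1 in R 4.3.3 fitted 1 mean per group over all 16 arrays (12 residual degrees of freedom, two-sided, Benjamini-Hochberg adjustment over all genes at 0.05). The script was tested on simulated data. Named genes were the 8 members with every probe, the 2 genes of each related list with the largest RA difference averaged over both lines and the 2 with the largest hairpin difference in vehicle among those that passed, and the 2 most correlated genes of each member. The members and lists were chosen with earlier results of these data known. Array numbers were looked at as pairs. Deviations from the group means of same-numbered arrays of the 2 lines correlated at 0.363 to 0.513 in vehicle and 0.431 to 0.541 under RA. Differently numbered arrays were not correlated, so pairing by number was not told apart from a batch shared by several numbers. Between treatments of a line, deviations of same-numbered arrays correlated at -0.211 to 0.219. The number of arrays limits the precision. Alternatives covered background correction, normalization, filters, slide, pairing, the second probe and leaving out each array. Normexp was run on mean spot signal and local background with an offset of 50.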

Additional observations from a re-analysis of the deposited data

Results flagged for a closer look

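Each of the 16 groups of 4 or 6 arrays formed by the 8 genes was searched for an array far from the others, by the gap to the nearest array as a share of the group's range (Dixon's test). Chance marks about 1 in 20 groups. Sytl3 on sh-Control RA array 2 was at -6.6352, with the nearest array at -4.90, and that array was the only one of its line where Sytl3 was not well above background. Rusc2 on sh-Control RA array 1 was at 1.9294, with the nearest array at 0.84, and Rusc2 on sh-SIRT1 RA array 1 was at 1.3053, with the nearest at 1.04. Both Rusc2 arrays are the highest of their group and carry the number 1.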

How the results depend on the processing

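Most of the 8 genes were dim, which limits every value near background. Normexp background correction, with its offset of 50, left 1 gene changed by RA in sh-Control (of 5). It left 2 genes with non-overlapping arrays under RA (of 6) and gave -0.107 for the Slc39a8 hairpin difference under RA. The median RA difference of all genes in sh-Control moved from -0.14 to -0.03. Background correction and offset were not varied separately, so the cause was not tested. Requiring a signal well above background on all 16 arrays left only Rusc2 and Cpsf4l, so the counts dropped to 0 changed by RA in sh-Control, 2 in sh-SIRT1 and 2 on average, 2 and 1 genes without overlap in vehicle and under RA, and 2 with the same sign in both. The Rusc2 difference under RA, -0.03, crossed 0 with quantile normalization (0.0050), the second probe (0.16) and within slides 1 (0.12) and 2 (0.20). Slc39a8 turned within slide 4 (-1.08) and against array 1 alone (-1.23), and Vmo1 with RA in sh-Control within slide 4 (-0.50) and on array 1 alone (-0.049). The background-level second Herc5 probe reversed its RA difference in sh-Control (-0.49), sh-SIRT1 (-0.78) and on average (-0.63) and its hairpin difference in vehicle (0.22).

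Leaving out each array in turn gave 4 to 6 genes changed by RA in sh-Control, 3 to 4 in sh-SIRT1 and 5 to 7 on average. It gave 8 genes without overlap in vehicle and 6 to 7 under RA. The share of all genes without overlap was computed only for the main fit, so the counts in other settings have none beside them. The Rusc2 difference under RA was -0.17 to 0.26 and the Slc39a8 difference under RA -0.059 to 0.93. The replicate block within treatment moved no count of members changed by RA and gave 0.011 for Rusc2 under RA; a block over all groups, added after seeing the data like the runs on related and neighbouring genes, also gave 0.011 and kept RA differences of Bhlhe22 in sh-SIRT1 (adjusted p = 0.0841) and Vmo1 on average (adjusted p = 0.0618) as well as Cyp7b1 (adjusted p = 0.0976 in vehicle, 0.113 under RA) and Gltpd2 under RA (adjusted p = 0.0661) from passing, while Slc39a8 passed with RA in sh-Control (adjusted p = 0.0452).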
